A study of Mus musculus with 8 samples.

Results

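The 10 immediate early genes Fos, Fosb, Jun, Junb, Egr1, Atf3, Nr4a1, Ier2, Dusp1 and Myc were taken by gene name from 34745 genes in the deposited table, and all 10 passed the filter on low counts that left 15237 genes for the tests. Immediate early genes are those that cells switch on first when a signal reaches them, before any new protein has to be made. Growth factors, stretch, injury, adrenergic drive and handling of the animal are all known to raise their messenger RNAs in the heart, and the messages are short-lived, so their levels change quickly. Most encode transcription factors. Fos, Fosb, Jun and Junb form the AP-1 complex, Atf3 binds as a related partner, Egr1 is a zinc finger factor, Nr4a1 is an orphan nuclear receptor and Myc drives growth and ribosome production, while Dusp1 removes phosphate from MAP kinases and Ier2 is a nuclear protein of the same early wave.

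The table holds heart tissue of male mice of the C57BL/KsJ strain with no treatment, either db/db, which lack a working leptin receptor and become obese and diabetic, or db/m, their heterozygous controls. Both genotypes were sampled at ages of 4, 12, 24 and 32 weeks with 1 library apiece, 8 libraries in all. According to the study's methods the mice were fasted before sampling and killed with sodium pentobarbital, and the labels add that hearts were frozen on dry ice. The methods assign more db/db mice to sequencing than there are db/db libraries, but how many hearts went into each library, how long each heart waited before freezing and the time of day are not given in the sources used here. With 1 library per genotype and age, differences between animals or in handling cannot be told apart from genotype and age.

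Library totals ran from 14445436 to 26676268 counts, and 3 counts, the floor under which a gene was treated as undetected, corresponded to 0.1125 to 0.2077 CPM. CPM are counts scaled to a fixed sum, here by the library total and edgeR's TMM factor. The 7 cardiomyocyte markers, Myh6 and Tnnt2 among them, were above the floor in every library. Mitochondrial genes took 11.8% to 16.43% of counts. All members were counted above the floor everywhere, from 9 counts for Fosb in db/m at 12 weeks to 2529 for Dusp1 in db/m at 32 weeks, so counting error was small except for Fosb, Atf3, Myc and the lowest values of Fos.

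The stretches before the start sites of 4 members are shown, those of Fos, Dusp1 and Nr4a1 because these genes varied together and that of Jun because it did not follow them. RefSeq (GRCm38.p6) gave a promoter for 7 of the 10 members (Fos, Fosb, Jun, Junb, Atf3, Nr4a1 and Dusp1). Each line holds the 250 bases before the annotated start, 5′ to 3′ on the gene's own strand, with matches to the searched motifs in capitals.
Fos, chr12:85473640-85473889, plus strand: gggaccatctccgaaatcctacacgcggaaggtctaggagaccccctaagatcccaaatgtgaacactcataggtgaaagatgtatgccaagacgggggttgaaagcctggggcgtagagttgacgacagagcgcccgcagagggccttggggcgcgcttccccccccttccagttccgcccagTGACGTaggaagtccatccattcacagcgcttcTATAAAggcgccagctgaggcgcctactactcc
Dusp1, chr17:26508473-26508722, minus strand: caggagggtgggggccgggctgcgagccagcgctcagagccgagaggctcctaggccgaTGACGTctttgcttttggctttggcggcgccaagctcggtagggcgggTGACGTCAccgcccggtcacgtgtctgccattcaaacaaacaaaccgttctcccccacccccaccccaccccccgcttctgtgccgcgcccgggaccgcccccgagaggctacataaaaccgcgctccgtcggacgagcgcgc
Nr4a1, chr15:101266596-101266845, plus strand: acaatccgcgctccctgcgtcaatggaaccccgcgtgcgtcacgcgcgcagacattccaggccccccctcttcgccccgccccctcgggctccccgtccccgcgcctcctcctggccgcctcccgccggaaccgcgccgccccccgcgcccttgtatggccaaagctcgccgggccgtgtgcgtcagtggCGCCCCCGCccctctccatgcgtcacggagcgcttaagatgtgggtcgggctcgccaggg
Jun, chr4:95052223-95052472, minus strand: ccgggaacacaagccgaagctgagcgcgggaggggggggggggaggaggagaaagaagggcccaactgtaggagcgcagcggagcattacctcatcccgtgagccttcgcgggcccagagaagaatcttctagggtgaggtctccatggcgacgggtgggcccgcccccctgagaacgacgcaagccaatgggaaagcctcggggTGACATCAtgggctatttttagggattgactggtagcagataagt

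Motifs were searched on both strands of those 250 bases, and the same search over 32851 RefSeq promoters gave the shares of comparison. TGACGT, the core of the cyclic AMP response element, stood in the promoters of Fos, Dusp1 and Atf3 and in 6.47% of all promoters. TGACNTCA, which overlaps that core where N is G, stood in those of Dusp1 and Jun and in 7.49% of all. The TATA box letters TATAAA were found before Fos, from 33 to 28 bases ahead of the start, and in 12.4% of all promoters. GCGNGGGCG, the motif bound by Egr1 and its relatives, stood in the promoters of Nr4a1 and Fosb and in 4.7% of all. The AP-1 motif TGANTCA and the CArG box matched in 0 of the 7 member promoters, against 6.75% and 1.47% of all promoters. No motif was shared by more than 3 of the 7, and a match is a description of letters only. Bases farther from the start and the promoters of Egr1, Ier2 and Myc were not searched. An absent match therefore holds for these 250 bases only.

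The members were highest in 1 library and lowest in another, and both were controls. The db/m library of 32 weeks held the highest level of 9 of the 10 members, against 15.1% of all tested genes, and Jun, the exception, was highest in db/m at 24 weeks. The db/m library of 12 weeks held the lowest level of 8 of 10, against 7.04% of all genes. The exceptions there were Nr4a1, lowest in db/m at 24 weeks, and Myc, lowest in db/db at 32 weeks. Scaling by the total count alone left 9 highest in db/m at 32 weeks and 6 lowest in db/m at 12 weeks.

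On the log2 scale, as a deviation from each gene's mean over the 8 libraries, the median over the members was 1.51 in db/m at 32 weeks, 0.71 in db/db at 12 weeks and 0.36 in db/db at 4 weeks. It was -0.09 in db/db at 32 weeks, -0.15 in db/m at 4 weeks, -0.45 in db/db at 24 weeks, -0.84 in db/m at 24 weeks and -0.96 in db/m at 12 weeks. Over all tested genes the same median stayed between -0.02 and 0.02. All 10 members lay above their own mean in db/m at 32 weeks and 0 of 10 did in db/m at 12 weeks. The db/db libraries of 4 and 12 weeks each held 8 of 10 members above their mean.

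**Figure D1:**
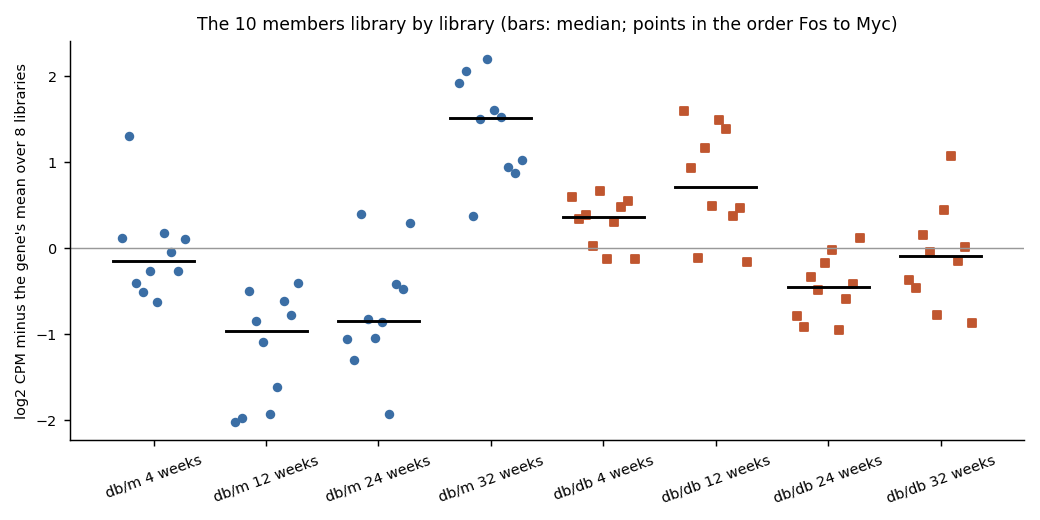
Deviation of each member's log2 CPM from its mean over 8 libraries (vertical axis) in each library (horizontal axis), with db/m as circles and db/db as squares, points in the order Fos, Fosb, Jun, Junb, Egr1, Atf3, Nr4a1, Ier2, Dusp1, Myc, and bars for the median over the members. The bar stands at 1.51 in db/m at 32 weeks and at -0.96 in db/m at 12 weeks.

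The spread was wide for most members. The ratio of the highest to the lowest library had a median of 7.4 over the members, against 1.81 over all tested genes with a count in every library, whose 5th and 95th percentiles were 1.25 and 6.83. Without the db/m library of 32 weeks the median over the members was 3.68, so that 1 library carried much of the spread, and the members were then highest in db/db at 12 weeks (4 members), db/db at 4 weeks (3), db/m at 24 weeks (2) and db/m at 4 weeks (1).

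Among the AP-1 members, Fos and Fosb spanned the widest ranges. Fos (ENSMUSG00000021250, plus strand, chr12 from 85473890 to 85477273) is the inducible partner of Jun and was at 11.1, 2.51, 4.93 and 38.5 CPM in db/m at 4, 12, 24 and 32 weeks and at 15.4, 30.7, 5.91 and 7.86 CPM in db/db. The high libraries were db/m at 32 weeks and db/db at 12 weeks, which differed from each other by only 1.25-fold, while the lowest lay 15.3-fold under the highest. The db/db values lay inside the range of db/m, and means were 14.3 ± 16.6 CPM in db/m and 15 ± 11.3 in db/db (SD over 4 ages).

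Fosb (ENSMUSG00000003545, chr7 from 19302721 to 19310045, minus strand), a close relative of Fos, followed it at a lower level, with 4.17, 0.435, 0.692 and 7.08 CPM in db/m and 2.15, 3.23, 0.906 and 1.24 CPM in db/db. Its second highest library was db/m at 4 weeks, which no other member shared. The lowest value rested on 9 counts, with a 95% Poisson interval of 0.199 to 0.825 CPM, so its ratio of 16.3 between extremes is loosely set.

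Junb (ENSMUSG00000052837, chr8 from 84976909 to 84978748, minus strand), the AP-1 subunit that restrains Jun, was at 12.1, 9.61, 9.78 and 48.6 CPM in db/m and at 17.7, 38.5, 12.3 and 16.8 CPM in db/db. As with Fos, db/m at 32 weeks and db/db at 12 weeks stood out, and the 3 other db/m libraries lay close together. Its 3′ end overlaps Prdx2 on the other strand, and reads of overlapping genes can be told apart only if strand was used in counting, which is not given in the sources used here.

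Jun (ENSMUSG00000052684, chr4 from 95049034 to 95052222, minus strand), the central AP-1 subunit, was at 46.8, 43.7, 81.9 and 80.7 CPM in db/m and at 80.9, 57.3, 49.3 and 69.3 CPM in db/db. It was in the upper group in db/m at 24 and 32 weeks and in db/db at 4 weeks, and its order of libraries was not that of Fos. Its ratio of extremes was 1.87, larger than in 53.4% of tested genes, whereas that of Fos was larger than in 98.5%. Jun overlaps the antisense gene Junos.

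Atf3 (ENSMUSG00000026628, chr1 from 191170296 to 191218039, minus strand), a stress-induced factor that pairs with Jun proteins, was at 3.93, 1.59, 3.32 and 18.5 CPM in db/m and at 5.58, 17, 5.94 and 8.26 CPM in db/db. The db/m library of 32 weeks and the db/db library of 12 weeks were level within counting error (ratio 1.09, log2 difference 0.13 with a counting standard error of 0.10). The highest library was 11.6-fold above the lowest.

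**Figure D2:**
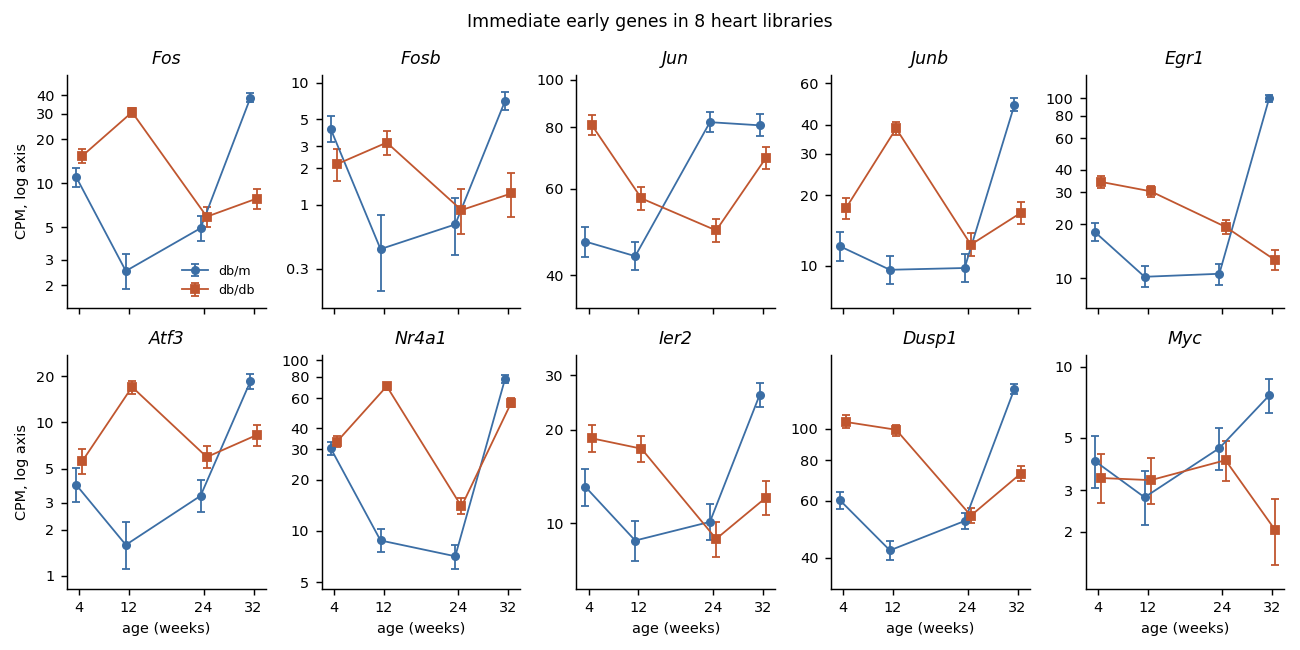
Level of each member in CPM on a log axis against age in weeks, with db/m as blue circles, db/db as orange squares and bars for the 95% Poisson interval of the count; lines join libraries of 1 genotype and not the same animals. The db/m line ends at its highest point for 9 members and the db/db line peaks at 12 weeks for Fos, Fosb, Junb, Atf3 and Nr4a1.

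Of the other factors, Egr1 (ENSMUSG00000038418, plus strand, chromosome 18 from 34859823 to 34864984) stood out most in 1 library. It was at 18.1, 10.2, 10.6 and 99.7 CPM in db/m and at 34.3, 30.4, 19.3 and 12.6 CPM in db/db. The 1901 counts in db/m at 32 weeks were 2.91-fold above the next library, the widest gap between highest and second among the 10, and the db/db levels were lower at each later age.

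Nr4a1 (ENSMUSG00000023034, plus strand, chr15 from 101266846 to 101274792), a nuclear receptor induced by many of the signals that induce Fos, was at 30.5, 8.79, 7.1 and 77.8 CPM in db/m and at 33.3, 70.4, 13.9 and 56.5 CPM in db/db. In db/db at 32 weeks Nr4a1 was below the levels of db/m at 32 weeks and db/db at 12 weeks and above all others, as was Atf3, whereas Egr1 lay below its own mean and Myc was at its lowest. Myc (ENSMUSG00000022346, plus strand, chr15 from 61985341 to 61990374) was at 3.99, 2.8, 4.52 and 7.55 CPM in db/m and at 3.38, 3.31, 4.02 and 2.03 CPM in db/db. It was highest in db/m and lowest in db/db at 32 weeks.

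Ier2 (ENSMUSG00000053560, chr8 from 84661331 to 84662852, minus strand) was at 13.1, 8.79, 10.1 and 26 CPM in db/m and at 18.8, 17.4, 8.9 and 12.1 CPM in db/db. Dusp1 (ENSMUSG00000024190, chr17 from 26505590 to 26508519, minus strand), the phosphatase that switches MAP kinases off again, was at 60.2, 42.2, 52 and 133 CPM in db/m and at 105, 99.4, 54 and 72.8 CPM in db/db. These members spanned 2.96-fold and 3.15-fold and shared their highest libraries, db/m at 32 weeks first and then db/db at 4 and at 12 weeks. Dusp1 lies within reach of several overlapping gene models in GENCODE vM21, Ergic1 on the other strand among them.

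Per kilobase of vM21 exons, the median level over the 8 libraries was 20.1 CPM for Dusp1, 19.8 for Jun, 9.09 for Nr4a1, 8.29 for Ier2, 6.33 for Junb, 4.17 for Egr1, 4.02 for Fos, 2.68 for Atf3, 1.36 for Myc and 0.271 for Fosb. Dusp1 and Jun could not be ordered against each other by these values, nor could Egr1 and Fos. The gene lengths implied by the authors' FPKM differed from the vM21 exon lengths for some members, as for Myc at 9.93 kb against 2.717 kb, so FPKM was not used to order genes.

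The members were then compared between genotypes at each age, as folds between single libraries. There is no replicate at any age, so no test was made and the standard errors cover counting only. A member was counted as past the threshold at 1.5-fold either way. Set against TMM, scaling by the total count alone moved the median gene by -0.19 at 4 weeks and by 0.15 at 32 weeks on the log2 scale, and the counts of members past 1.5-fold that follow were equal under that scaling.

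At 4 weeks 3 of 10 members were higher in db/db past 1.5-fold, against 12.3% of all genes, and 1 was lower, against 14.4%. The higher ones were Egr1 (1.89-fold, log2 0.92, counting SE 0.10), Dusp1 (1.75-fold) and Jun (1.73-fold). Fosb was 1.94-fold lower, on 69 and 47 counts. The median log2 fold over the members was 0.51, and 8 of 10 were above 0, of which 5 lay inside the threshold. Scaled by the total count 7 were above 0, 4 of them inside the threshold, as Nr4a1 went from 0.13 to -0.06.

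At 12 weeks 8 of 10 members were higher in db/db past the threshold, against 8.84% of all genes, and 0 were lower, against 9.76%. Fos went from 52 counts in db/m to 751 in db/db, a 12.2-fold difference (log2 3.61, counting SE 0.21). Atf3 went from 33 to 415 counts (10.7-fold), Nr4a1 from 182 to 1720 (8.01-fold), Fosb from 9 to 79 (7.44-fold), Junb from 199 to 940 (4-fold) and Egr1 from 212 to 744 (2.97-fold). Dusp1 was 2.36-fold and Ier2 1.98-fold higher. Jun (1.31-fold) and Myc (1.18-fold) did not pass the threshold, and the median log2 fold was 1.79. This pair joins the lowest library of most members with a library where most of them were high.

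At 24 weeks few members passed, with 3 of 10 higher in db/db, against 14.5% of all genes, and 1 lower, against 15.3%. Nr4a1 was 1.96-fold, Egr1 1.82-fold and Atf3 1.79-fold higher in db/db, and Jun was 1.66-fold lower. Fos was at 107 and 150 counts (1.2-fold), and the median log2 fold over the members was 0.30.

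At 32 weeks the direction was the opposite of that at 12 weeks. In db/db 0 of 10 members were higher, against 15.2% of all genes, and 8 were lower, against 12.7%. Egr1 went from 1901 counts in db/m to 255 in db/db (7.91-fold lower, log2 -2.98, counting SE 0.10), Fosb from 135 to 25 (5.73-fold lower) and Fos from 734 to 159 (4.9-fold lower). Myc was 3.73-fold, Junb 2.89-fold, Atf3 2.24-fold, Ier2 2.14-fold and Dusp1 1.82-fold lower. Nr4a1 (1.38-fold lower) and Jun (1.16-fold lower) stayed inside the threshold, and the median log2 fold was -1.35.

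**Figure D3:**
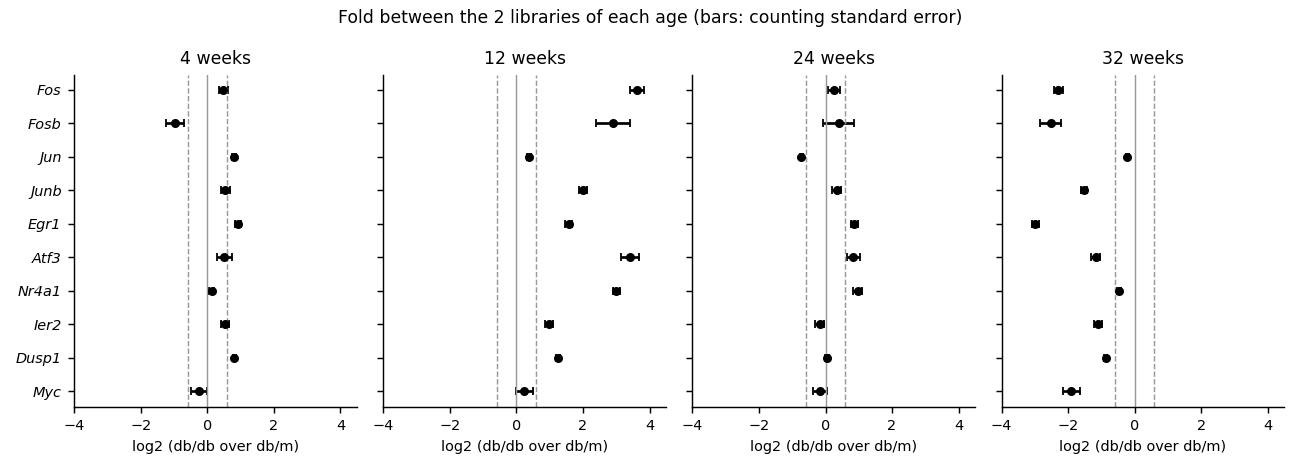
Log2 fold of db/db over db/m (horizontal axis) for each member (vertical axis) at 4, 12, 24 and 32 weeks, with bars for the counting standard error and dashed lines at 1.5-fold either way. All 10 points lie right of 0 at 12 weeks and left of 0 at 32 weeks.

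Over the 4 ages together the genotypes were not separated for any member. The ranges of the 4 db/m and the 4 db/db libraries overlapped for 10 of 10, and for 9 of them the db/db range lay inside that of db/m, Myc being the exception. The same counts over all genes were not computed, so whether these are unusual is not known. In edgeR's quasi-likelihood fit with age as a block, 0 of 10 members passed an adjusted p of 0.05, as did 0 of 15237 genes (0% called), while 1770 genes had an unadjusted p under 0.05. DESeq2's Wald test called 271 genes (1.78%) and 0 members. The fitted log2 difference of db/db from db/m was above 0 for 8 members and for 7863 of 15237 genes, and below 0 for Fosb and Myc. It was largest for Nr4a1 (0.84, SE 0.55, adjusted p = 0.599 in edgeR) and Atf3 (0.80, SE 0.69, adjusted p = 0.695 in edgeR), and for Fos it was 0.43 (SE 0.89). Without the db/db library of 12 weeks the values of Fos, Jun, Junb, Egr1 and Ier2 fell below 0 (Fos -0.49), and without the db/m library of 32 weeks that of Fosb was 0.61. Without the pair of 4 weeks the values of Jun (-0.19), Ier2 (-0.11) and Egr1 (-0.03) were below 0 as well, and that of Fosb was 0.11. Without the db/db library of 12 weeks the values of Nr4a1, Atf3 and Dusp1 were 0.20, 0.05 and 0.00, against 0.84, 0.80 and 0.31 with it. For the same genes they were 1.33, 1.52 and 0.69 without the db/m library of 32 weeks.

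With age, over both genotypes, 0 of 10 members and 0 of 15237 genes (0% called) passed in edgeR, where 1042 genes had an unadjusted p under 0.05, and DESeq2's Wald test called 107 genes (0.702%) and 0 members. The largest slope was that of Atf3, 0.46 log2 units per 10 weeks (SE 0.31, adjusted p = 0.837 in edgeR). The slope over both joined opposite values within the genotypes, given here with no test. All 10 slopes were above 0 in db/m, from 0.32 for Ier2 and Fosb to 0.81 for Atf3, and all 10 were below 0 in db/db, from -0.03 for Atf3 to -0.60 for Fos. Without the db/m library of 32 weeks the slope over both genotypes fell below 0 for Fosb (-0.75, from 0.00), Fos (-0.61), Egr1 (-0.47), Nr4a1 (-0.31), Ier2 (-0.26), Junb (-0.24), Dusp1 (-0.21), Atf3 (-0.10) and Myc (-0.06).

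The change of the genotype difference with age was negative for 10 of 10 members, while it was positive for 6861 of 15237 genes. Its median was -0.70 log2 units per 10 weeks over the members, against -0.02 over all genes. Most members varied together over the same libraries, so the equal signs are not separate observations. In edgeR 0 of 10 members and 0 of 15237 genes (0% called) passed the adjusted threshold, where 1792 genes (11.8%) and 4 members (Jun, Egr1, Ier2 and Dusp1) had an unadjusted p under 0.05. The value was -0.66 for Dusp1 (SE 0.16, adjusted p = 0.33 in edgeR), -0.64 for Ier2 (SE 0.18, adjusted p = 0.337 in edgeR), -1.27 for Egr1 (SE 0.51) and -1.24 for Fos (SE 0.66). DESeq2's Wald test called 129 genes (0.847%) and 1 member, Dusp1 (-0.65, adjusted p = 0.0427). Much of this rested on the pair of 32 weeks. Without it the value was -0.07 for Egr1, -0.26 for Fos, -0.21 for Junb, -0.02 for Atf3 and -0.00 for Myc, above 0 for Fosb (0.67) and Nr4a1 (0.30), and -0.42 for Dusp1, -0.40 for Ier2 and -0.77 for Jun. Leaving out the pair of 4 weeks moved it farther below 0 for Fos (-2.93), Egr1 (-2.14) and Dusp1 (-1.04), and from -0.45 to -0.34 for Jun. Leaving out the pair of 12 weeks gave -0.82 for Fos.

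Most members varied together with Fos across the libraries. Over 8 libraries, Pearson's r of log2 CPM with Fos was 0.94 for Dusp1, 0.93 for Ier2, 0.92 for Junb and Fosb, 0.90 for Atf3, 0.88 for Egr1 and 0.87 for Nr4a1. Spearman's rho was 0.95, 0.95, 0.93, 0.93, 0.81, 0.90 and 0.90 in the same order. By the exact permutation test over all pairings, two-sided and adjusted over 9 relations, p was 0.00246 for Dusp1, Ier2 and Junb, 0.00357 for Fosb, 0.0051 for Atf3, 0.0042 for Egr1 and 0.00861 for Nr4a1. The adjusted exact p for rho ran from 0.00502 to 0.028 over these 7.

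Jun and Myc did not share that pattern past the threshold. Their r with Fos was 0.43 (rho 0.29) and 0.47 (rho 0.24), with adjusted exact permutation p of 0.28 and 0.272. When the libraries farthest from the median of Fos, db/m at 32 and 12 weeks, were left out, r over the 6 others was 0.72 to 0.90 for the 7 genes above and -0.13 and -0.19 for Jun and Myc. With 6 libraries 0 of 9 relations passed the adjusted exact permutation test, the lowest adjusted p being 0.075, and 4 members (Junb, Egr1, Ier2 and Dusp1) had an unadjusted exact p under 0.05. Leaving out libraries also lowered their number, and the part of each was not tested. Of the 45 pairs among the 10 members, 32 had an r over 0.5, with a median of 0.81. With 4 libraries a genotype, no value was computed within genotypes.

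Outside the members, the gene whose profile was most like theirs was Acvr1, a receptor for activins and bone morphogenetic proteins, with r = 0.970 to the members' mean profile over 8 libraries, though it moved by only 1.31-fold between extremes. The next by the same rule were Azin1 (0.948), Ptgs2 (0.933), Btbd10 (0.931), Arfip1 (0.916), Egr3 (0.912), Capn2 (0.907), Nr4a2 (0.906), Snrpg (0.904) and Gpr157 (0.899), out of 13936 genes ranked. Ptgs2, the inducible cyclooxygenase, Egr3 and Nr4a2 are known early response genes themselves. Of these 10, only Ptgs2, Egr3 and Nr4a2 spanned more than 2-fold between their extremes, with ratios of 16.5, 17.6 and 7.69. Their lowest values, in db/m at 12 weeks, rested on 13, 5 and 27 counts, so these ratios are loosely set. These r are descriptions over 8 shared libraries and carry no test.

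Further early response genes were highest in the same library as the members. Of other early transcription factors, 10 of the 16 tested were highest in db/m at 32 weeks, and so were 5 of 7 AP-1 partners, 11 of 15 inhibitors and messenger RNA decay factors and 8 of 13 secreted factors and enzymes. Over all genes that share was 15.1%. Of the 51 genes 0 were called in any of the 3 edgeR fits, 26 (51%) had an unadjusted p under 0.05 in at least 1, against 26.9% of all genes, and DESeq2's Wald test called Klf4 and Csrnp1 (3.92%, against 3.22% of all genes in at least 1 fit). Klf4 was highest in db/m at 32 weeks (91.6 CPM), whereas Csrnp1 was highest in db/db at 24 weeks (50 CPM, against 33.1 in db/m at 32 weeks). Fosl2, an AP-1 partner, was at 237 CPM in db/m at 32 weeks and at 47.6 to 118 CPM elsewhere. Egr2 was at 13.4 CPM there, 3.2 in db/db at 4 weeks and at most 1.47 in the 6 others. Zfp36, which speeds the decay of early messages, was at 50.7 CPM in db/m at 32 weeks and at 11.7 in db/m at 12 weeks. The AP-1 partner Jdp2 and the NF-kappa-B inhibitor Nfkbia were highest in db/m at 32 weeks, at 14.3 and 64 CPM. Thbs1, a secreted matrix protein, was at 747 CPM in db/m at 32 weeks, 224 in db/db at 4 weeks and 15.2 to 48.1 in the others.

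Kinases and transcription factors that act upstream of the members varied less. Of 16 such genes, Srf, Elk1, Creb1 and the MAP kinases among them, 2 were highest in db/m at 32 weeks and the median ratio of extremes was 1.58, with 0 called in edgeR, 5 (31.2%, against 26.9% of all genes) at an unadjusted p under 0.05 in at least 1 fit and 1, Creb1, called by DESeq2's Wald test (6.25%, against 3.22%). Of 14 partners and targets of Myc 4 were highest there, against 15.1% of all genes, and their median deviation in that library was 0.03. Of these 14, 0 were called in edgeR and 0 in DESeq2. At an unadjusted p under 0.05 in at least 1 edgeR fit there were 6, or 42.9%, against 26.9% of all genes.

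The libraries with high members were not alike. Between db/m at 32 weeks and db/db at 12 weeks, 3 members (Egr1, Fosb and Myc) were higher in the former past 1.5-fold, against 15.3% of all genes, and 0 in the latter, against 13.4%, with a median log2 difference of 0.46. Over the 51 tested genes of the early response lists, 31 were higher in db/m at 32 weeks and 2 in db/db at 12 weeks, with a median of 0.89, while the median over all genes was -0.01. The 2 were Btg2, an inhibitor of proliferation, at 76.5 and 124 CPM, and Dusp10, a MAP kinase phosphatase, at 5.35 and 8.55 CPM. Nr4a2, at 8.39 and 10 CPM, was inside the threshold. Ptgs2 was at 10.4 and 2.21 CPM, Maff at 24 and 5.48, and Socs3, an inhibitor of cytokine signalling, at 24.9 and 5.89. Fos, Junb, Atf3 and Nr4a1 differed between these libraries by at most 1.26-fold, whereas Egr1 differed by 3.28-fold, Egr2 by 9.08-fold and Thbs1 by 20.9-fold.

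**Figure D4:**
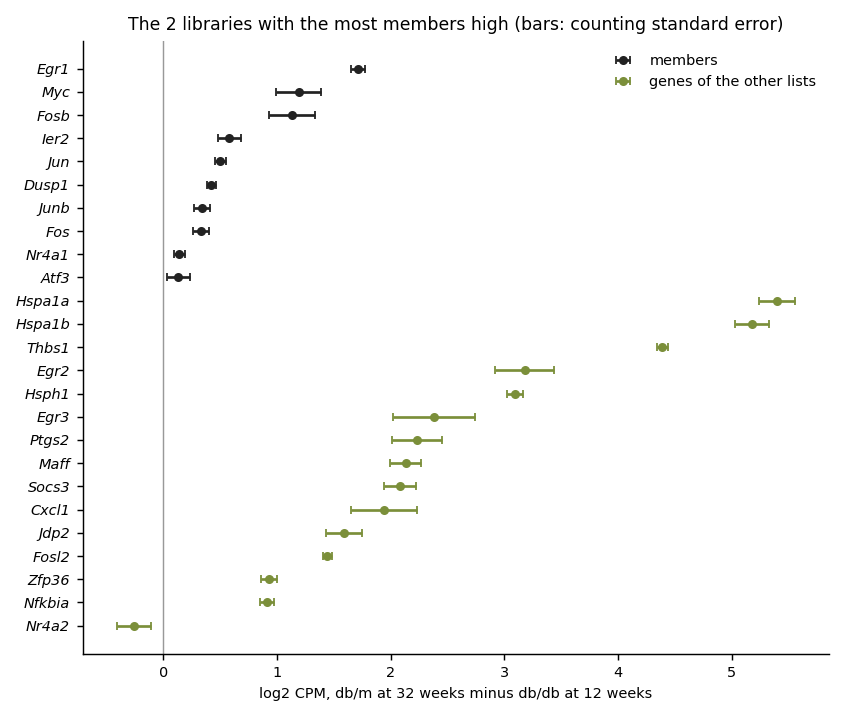
Log2 CPM in db/m at 32 weeks minus that in db/db at 12 weeks (horizontal axis) for the 10 members in black and for 15 genes of the early response and heat shock lists in green (vertical axis), with bars for the counting standard error. Atf3, Nr4a1, Fos and Junb lie within 0.34 of 0, and Hspa1a lies at 5.40.

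Some heat shock genes, Hspa1a, Hspa1b and Hsph1 among them, were far higher in db/m at 32 weeks than in db/db at 12 weeks. Hspa1a, the inducible HSP70 chaperone, was at 138 CPM in db/m at 32 weeks, 30.6 in db/db at 4 weeks, 3.27 in db/db at 12 weeks and 1.40 to 2.91 in the 5 others. Its near copy Hspa1b was at 142, 28.4 and 3.93 CPM in the same 3 libraries, and 63.8% of the 31-base stretches of Hspa1a occur in Hspa1b, so the split between them is uncertain. Of 12 heat shock genes 9 were highest in db/m at 32 weeks, with a median deviation of 1.12 there on the log2 scale, and 0 were called in edgeR (10, or 83.3%, at an unadjusted p under 0.05 in at least 1 fit, against 26.9% of all genes). DESeq2's Wald test called 4 (Hspa1a, Hspa1b, Dnajb1 and Bag3), or 33.3%, against 3.22% of all genes. Hsph1 was at 180 CPM in db/m at 32 weeks and 21.1 in db/db at 12 weeks. Bag3 was highest in db/db at 12 weeks (394 CPM, against 384 in db/m at 32 weeks), and Hspd1 was at 322 and 344 CPM in db/db at 12 weeks and db/m at 32 weeks. As for Egr2 and Thbs1, the highest libraries of Hspa1a were db/m at 32 weeks and then db/db at 4 weeks.

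Lists for other stress and state responses were examined next. Of 12 genes of the integrated stress response 5 were highest in db/m at 32 weeks, but Asns and Chac1 were highest in db/m at 4 weeks (14.7 and 12.5 CPM), while Gadd45g was at 13.1 CPM in db/m at 32 weeks and 12.4 in db/db at 24 weeks. Of 12 glucocorticoid response genes 1 was highest in db/m at 32 weeks, and Cdkn1a was at 100 CPM there and at 126 in db/db at 24 weeks, where the members were low. Clock genes differed between libraries without the members' order: Arntl was at 28.8 CPM in db/m at 32 weeks and 4.25 in db/db at 32 weeks, and Dbp, which peaks at another phase of the day, at 10.7 and 29.1 CPM, and Ciart was highest in db/db at 24 weeks (16.6 CPM). Of 7 cardiac load genes 5 were highest in db/m at 32 weeks, against 15.1% of all genes. Nppb at 108 CPM and Acta1 at 739 were among them, against 13.8 and 82.6 in db/db at 32 weeks. Nppb was also at 104 and 89.1 CPM in db/m at 24 and 12 weeks, where the members were low. Myh7, the slow myosin chain, went another way, at 2580 CPM in db/db at 24 weeks, 1770 in db/db at 32 weeks and 1510 in db/m at 32 weeks. Of the 44 tested genes in these lists 0 were called in edgeR (21, or 47.7%, at an unadjusted p under 0.05 in at least 1 fit, against 26.9% of all genes). DESeq2's Wald test called 10, or 22.7%, against 3.22% of all genes (Fkbp5, Per1, Lcn2, Arntl, Per2, Dbp, Hlf, Myh7, Xirp2 and Rcan1), and the part of any of them in the members' levels was not tested.

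Markers of other tissue moved with the library as well. The 5 atrial markers summed to 72.9 to 373 CPM in db/m and 41.9 to 273 in db/db, highest in db/m at 32 weeks and next in db/db at 24 weeks and db/db at 4 weeks (206). Myl7, the atrial light chain, had 552 counts in db/m at 32 weeks, 392 and 662 in db/db at 4 and 24 weeks, 26 in db/db at 32 weeks and 0 in the others. In db/db at 24 weeks the atrial sum was 273 CPM with the members' median at -0.45, and in db/db at 12 weeks Myl7 and Sln were at 0 counts with the members' median at 0.71. The 5 white fat markers summed to 3.15 CPM in db/m at 32 weeks, 3.66 in db/db at 4 weeks and 1.81 in db/m at 4 weeks, and to at most 0.551 elsewhere, with all 5 at or under the floor in db/m at 12 and 24 weeks and in db/db at 12 and 32 weeks. In bulk tissue, more cells of a type and more RNA per cell cannot be told apart.

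**Figure D5:**
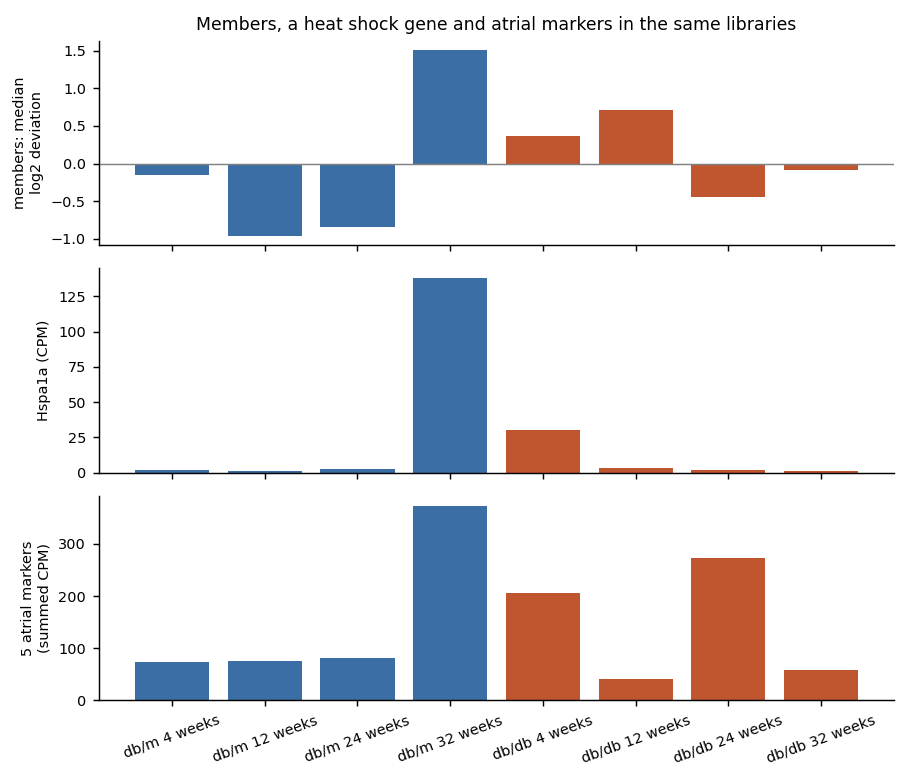
Median log2 deviation of the 10 members (top), Hspa1a in CPM (middle) and the summed CPM of 5 atrial markers (bottom) in each library, with db/m in blue and db/db in orange. Members and Hspa1a are both highest in db/m at 32 weeks. In db/db at 12 weeks the members' median is 0.71 with Hspa1a at 3.27 CPM. In db/db at 24 weeks the atrial sum is 273 CPM with the members' median at -0.45. Nppa gives 235 CPM of the atrial sum in db/m at 32 weeks and 139 CPM in db/db at 24 weeks.

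The part of the atrial, white fat and remaining marker lists in the members' levels was not tested. Smooth muscle markers were at 288 and 290 CPM in db/m at 32 weeks and db/db at 4 weeks against 87 in db/db at 12 weeks, and the summed skeletal muscle markers were highest in db/m at 32 weeks (1840 CPM against 951 to 1540), where Acta1, a gene also of the heart, gave 739 CPM. The markers Myh4, Myh1, Myh2, Mylpf and Tnnt3 were instead highest in db/m at 4 weeks, Myh4 with 864 counts there and 2 in db/m at 32 weeks. Liver markers summed to 0.604 to 1.42 CPM in db/m and to 18.9, 17.2 and 21.4 CPM in db/db at 12, 24 and 32 weeks, after 0.777 at 4 weeks. Neutrophil markers were at 32.5 CPM in db/db at 32 weeks against 2.03 to 6.93 elsewhere, and nerve markers at 36.9 CPM in db/m at 4 weeks against at most 7.87. Macrophage markers ran from 80.2 to 218 CPM and lymphocyte markers from 1.14 to 6.04. The highest library was another one than db/m at 32 weeks for cardiomyocyte, endothelial, fibroblast, red blood cell and brown fat markers.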

How the data were processed

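RNA-seq counts of 8 mouse heart libraries were analysed. The study's methods state strand-specific libraries after rRNA depletion, and the submitters' processing notes name HISAT2, StringTie 1.3.0 and GRCm38 (mm10) without giving their roles. The authors deposited whole-number read counts per gene, not normalized, and beside them FPKM values, which were used only as an alternative scaling. Library totals were 14445436 to 26676268 counts.

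The fits were run with edgeR 4.0.16 (TMM, filterByExpr, quasi-likelihood test, Benjamini-Hochberg adjustment over all 15237 genes, threshold 0.05) and, as an alternative, DESeq2 1.42.0 under R 4.3.3. The 3 fits were the genotype effect with age as a block, the age trend with genotype as a term, and the change of the genotype effect with age. Since the ages serve as the only repeats, p-values measure the spread between these libraries. Pairs of 1 age were compared by fold alone, at 1.5-fold either way where the pair held 10 counts or more. Intervals are 95% Poisson intervals and cover counting error only. Relations used exact permutation tests. Each fit was tested on simulated counts. Promoters came from RefSeq GRCm38.p6, and overlaps and exon lengths from GENCODE vM21. Scripts ran in Python 3.11.15 (scipy 1.17.1, pandas 2.3.3, numpy 2.4.6; figures by matplotlib 3.10.9).

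The members and the gene lists were chosen with earlier results of these data known. All members were named. From the lists a gene was named if it passed a fit, or was among the 3 with the largest ratio of highest to lowest library and had at least 50 counts in 1 library. The genes most like the members were the 10 with the highest r among those with a mean CPM of at least 1. Other genes were named after their values were seen, or as examples of what a list holds. The alternatives were other scalings, no filter, DESeq2's Wald test, no age block, age as a covariate or as rank, each genotype alone, a 2-fold threshold, 50 counts and leaving out ages. Leaving out single libraries was added after seeing the data.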

Additional observations from a re-analysis of the deposited data

Results flagged for a closer look

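Junb in db/m at 32 weeks, at 48.6 CPM, lay far from the 3 other db/m libraries. Its gap to the next library was 0.856 of the group's range on the log2 scale, above Dixon's critical value for 4 values. Of 20 groups examined (10 members in 2 genotypes) 1 passed, and chance passes about 1 in 20, and the 4 libraries of a genotype also differ in age.

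For 7 members the db/db library lay above db/m past 1.5-fold at 12 weeks and below it past 1.5-fold at 32 weeks, as for 1.66% of all genes. The log2 difference between the folds of these ages was 5.91 for Fos, 5.41 for Fosb, 4.58 for Atf3, 4.56 for Egr1, 3.53 for Junb, 2.10 for Dusp1 and 2.08 for Ier2. This difference was not tested, since each age has 1 pair, and the linear change with age passed for 0 members in edgeR.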

How the results depend on the processing

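The 8 members higher in db/db at 12 weeks and the 8 lower at 32 weeks became 7 and 7 at a 2-fold threshold, and each was 8 under total counts, DESeq2 size factors, FPKM ratios and a minimum of 50 counts. At 4 and at 24 weeks the 2-fold threshold left 0 higher and 0 lower. Single pair values kept their direction wherever they were past 1.5-fold. Members called stayed at 0 in the 3 fits under all alternatives run, except that DESeq2's Wald test called 1 for the change with age. Without the db/m library of 32 weeks the median ratio of extremes was 3.68. Without the libraries farthest in Fos, 0 relations passed and r was -0.13 for Jun and -0.19 for Myc. The genotype effect was below 0 without the db/db library of 12 weeks for Fos (-0.49), Egr1 (-0.26), Ier2 (-0.25), Junb (-0.21) and Jun (-0.06), without the age block for Egr1 (-0.52) and Ier2 (-0.02) and with age as a linear covariate for Egr1 (-0.17). For Fosb it was 0.61 without the db/m library of 32 weeks. Leaving out each age in turn, it ran from -0.49 to 1.35 for Fos, -1.10 to 0.62 for Fosb, -0.26 to 1.12 for Egr1, -0.25 to 0.44 for Ier2, -0.19 to 0.32 for Jun and -0.21 to 0.96 for Junb. The age slope ran from -1.03 to 0.49 for Fosb, -0.09 to 0.59 for Atf3, -0.27 to 0.25 for Dusp1, -0.39 to 0.55 for Egr1, -0.65 to 0.35 for Fos, -0.35 to 0.21 for Ier2, -0.25 to 0.42 for Junb and -0.93 to 0.58 for Nr4a1. The change with age ran from -2.67 to 0.67 for Fosb and -1.72 to 0.30 for Nr4a1. Without the db/m library of 32 weeks the age slope was -0.75 for Fosb, -0.61 for Fos, -0.47 for Egr1, -0.31 for Nr4a1, -0.26 for Ier2, -0.24 for Junb, -0.21 for Dusp1, -0.10 for Atf3 and -0.06 for Myc. In db/db alone it was -0.60 for Fos, -0.52 for Egr1, -0.48 for Fosb, -0.32 for Ier2, -0.27 for Dusp1, -0.23 for Junb, -0.19 for Myc, -0.10 for Jun, -0.07 for Nr4a1 and -0.03 for Atf3. For Fosb it was -0.05 under total counts and -0.01 in DESeq2, against 0.00. Fewer libraries and ages enter these fits, and the cause of each change of direction was not tested. Depth limits Fosb most, at 9 counts in its lowest library.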

Other observations

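Lcn2, a neutrophil and epithelial defence protein, was at 18.7 and 17.9 CPM in db/db at 24 and 32 weeks and at 0.507 to 4.99 CPM in the other libraries. Cxcl1, a chemokine that draws neutrophils, was at 6.13 CPM in db/db and 5.35 in db/m at 32 weeks. Mt2, a metallothionein, was at 87.8 CPM in db/m at 32 weeks, 66.9 in db/db at 24 weeks and 12 in db/m at 12 weeks. Among the genes around Myc and the MAP kinases, Mlx was lowest in db/m at 32 weeks (5.93 CPM) and at 9.64 to 14.9 CPM elsewhere, and Rps6ka1 was lowest there as well (5.61 CPM, against 12.5 in db/db at 32 weeks). Mxd1 was highest in db/m at 32 weeks (18 CPM, lowest 7.94), Mxi1 in db/m at 24 weeks (46.4 CPM, lowest 24.3) and Rps6ka3 in db/m at 4 weeks (89.8 CPM, lowest 38).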
